A study of Homo sapiens with 15 samples.

Results

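The genes described here are 45 genes of DNA replication and S phase, picked by symbol from the 61552 Ensembl genes counted in MDA-MB-468 cells. All 45 symbols mapped to a gene ID each. The rule that picked them set no cutoff on a measured value, but the list was chosen with earlier results of these data known. Every one of the 45 passed the filter on low counts in each comparison, with counts between 144 (POLE2) and 32788 (PCNA) in a library.

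Replication starts when the origin recognition complex, CDC6 and CDT1 load the ring of MCM proteins onto DNA before S phase. In S phase CDC45 and the GINS proteins turn that ring into a moving helicase, primase and the DNA polymerases copy the strands on the PCNA clamp, and ribonucleotide reductase supplies the nucleotides. Many of these genes are known targets of E2F transcription factors, which are released when growth factor signals, such as those of the EGF receptor (EGFR), inactivate the retinoblastoma protein. MDA-MB-468 is a human breast cancer cell line with an amplified EGFR gene, in which the copies of the RB1 gene are known to be lost.

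The series holds 5 groups of 3 libraries. In the drug experiment, cells were starved of serum for 12 h and given 10 ng/mL EGF alone (EGF), EGF with 10 µM cSNX1.3, a peptide that blocks binding of EGFR to Sorting Nexin 1 and lowers nuclear EGFR, or EGF with 15 µM erlotinib, an inhibitor of the EGFR kinase, for 12 h. In the line experiment, the cells' own EGFR was knocked down by an shRNA induced with IPTG, and EGFR-GFP was put back either as the wildtype protein (WT) or with its nuclear localization signal mutated (ΔNLS), and the cells were given EGF. The dose and time of EGF for the lines, and whether the lines were starved of serum, are not given in the sources used here. Nothing says that the 3 libraries of a group came from separate cultures. The p-values therefore measure the spread between these libraries, which may be technical.

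The promoters of these genes are shown first because many of the genes are known E2F targets. RefSeq promoters on GRCh38.p14, from 250 bases before to 50 bases after a gene's start, were listed for 40 of the 45 genes. The letters TTTGGCGC, TTTCCCGC, TTTCGCGC or TTTGCCGC, on either strand and counted with overlaps, stood in at least 1 promoter of 21 of the 40 genes (52.5%), against 1090 of 27305 genes in the whole table (3.99%). They stood in 16 of 33 other replication genes (48.5%) and in 2 of 12 genes of G2 and mitosis (16.7%). The letters TTTGAA, known as the cell cycle homology region of mitotic genes, showed the opposite order, with 2 of 40 replication genes (5.0%), 8 of 12 G2/M genes (66.7%) and 18.2% of all genes. CCAAT stood in 25 of 40 replication genes (62.5%), in all 12 G2/M genes and in 39.7% of all genes. These are matches of letters in a window, not binding sites.

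Examples are given below 5′ to 3′ on the strand of the gene, from bases before the start only, with the matched letters in capitals. MCM6 (helicase subunit), PCNA (clamp), CDT1 (MCM loader), LIG1 (DNA ligase), DTL (a ubiquitin ligase subunit that marks CDT1 for destruction) and the factors E2F1 and E2F2 carried E2F letters, and TK1 (thymidine kinase) carried CCAAT, here read on the other strand as ATTGG, but no E2F letters.
MCM6, chr2:135876562-135876621, minus strand: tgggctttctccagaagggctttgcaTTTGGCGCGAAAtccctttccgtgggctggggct
PCNA, chr20:5126648-5126707, minus strand: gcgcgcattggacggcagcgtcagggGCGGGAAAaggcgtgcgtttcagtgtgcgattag
CDT1, chr16:88803728-88803787, plus strand: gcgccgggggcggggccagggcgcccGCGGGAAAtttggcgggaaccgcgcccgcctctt
LIG1, chr19:48170425-48170484, minus strand: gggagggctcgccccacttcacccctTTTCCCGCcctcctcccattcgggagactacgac
DTL, chr1:212035688-212035747, plus strand: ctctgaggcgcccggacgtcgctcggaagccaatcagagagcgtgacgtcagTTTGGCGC
E2F1, chr20:33686386-33686445, minus strand: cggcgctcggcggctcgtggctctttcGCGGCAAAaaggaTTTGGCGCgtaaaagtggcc
E2F2, chr1:23531242-23531301, minus strand: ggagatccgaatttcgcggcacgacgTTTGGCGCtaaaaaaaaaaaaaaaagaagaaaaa
TK1, chr17:78187094-78187155, minus strand: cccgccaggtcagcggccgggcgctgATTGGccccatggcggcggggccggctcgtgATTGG

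Libraries held 22915676 to 35900649 counts. The labels were checked on EGFR and on DUSP6 and SPRY4, which are induced by the MAP kinase pathway. EGFR was at 4318 to 4963 CPM with EGF, 5760 to 6502 with cSNX1.3, 4564 to 4992 with erlotinib, 1147 to 1450 in WT and 1688 to 1746 in ΔNLS, where the count also takes in the EGFR put back. DUSP6 was at 11.95 to 13.8 CPM with EGF and 0.247 to 0.593 with erlotinib, and SPRY4 at 6.19 to 8.96 and 0.0706 to 0.327. In the other groups DUSP6 was at 18.2 to 22.9 CPM with cSNX1.3, 15.65 to 16.46 in WT and 14.55 to 16.11 in ΔNLS. SPRY4 was at 8.75 to 10.4, 3.355 to 4.90 and 6.32 to 7.69 CPM in these groups. The 5 breast epithelial markers were present in every library, with summed levels of 15590 to 20660 CPM with EGF, 18400 to 23800 with cSNX1.3, 8686 to 10510 with erlotinib, 17890 to 20590 in WT and 11090 to 13700 in ΔNLS. Summed markers of leukocytes (6 genes, of which 2 were at 0 in every library), fibroblasts (3 genes, of which DCN was at 0 in every library) and endothelium (3 genes) reached at most 42.1, 21.3 and 6.87 CPM. Nearly all of the leukocyte sum was CD14, and nearly all of the fibroblast sum was COL1A1. CD14 was at 13.8 to 18.8 CPM with EGF, 9.05 to 13.3 with cSNX1.3, 37.9 to 41.8 with erlotinib, 25.6 to 36.8 in WT and 37.5 to 41.9 in ΔNLS. The part of these marker differences in the results below was not tested.

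CPM in the text are counts divided by TMM-adjusted library sizes, with one set of factors for all 15 libraries. Summed over the 45 genes, the level was 4706 ± 148 CPM (SD, n = 3) with EGF, 4225 ± 180 with cSNX1.3, 3910 ± 140 with erlotinib, 6390 ± 20.7 in WT and 7991 ± 258 in ΔNLS. The libraries ranged from 4581 to 4869 with EGF, 4038 to 4397 with cSNX1.3, 3778 to 4056 with erlotinib, 6367 to 6407 in WT and 7828 to 8288 in ΔNLS, so that the lines lay above the drug groups without overlap. Per length of exon (RPKM, which is CPM divided by exon length), PCNA was the most abundant with a mean of 402 in EGF cells, followed by MCM3 at 96.9, TK1 at 84.8, MCM6 at 77.3 and FEN1 at 76.3. The lowest were POLE2 at 2.83, TICRR at 2.09 and POLA2 at 0.803, and the 5 next lowest were GINS3, GINS4, GINS1, MCM10 and POLA1, between 3.13 and 5.28. This order rests on the length used, since with the length of the longest transcript PCNA stayed first at 415 RPKM but GMNN came next at 133, and POLA2 was at 2.49. Fewer cells in S phase and less RNA of these genes per cell cannot be told apart in such bulk samples.

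**Figure D1:**
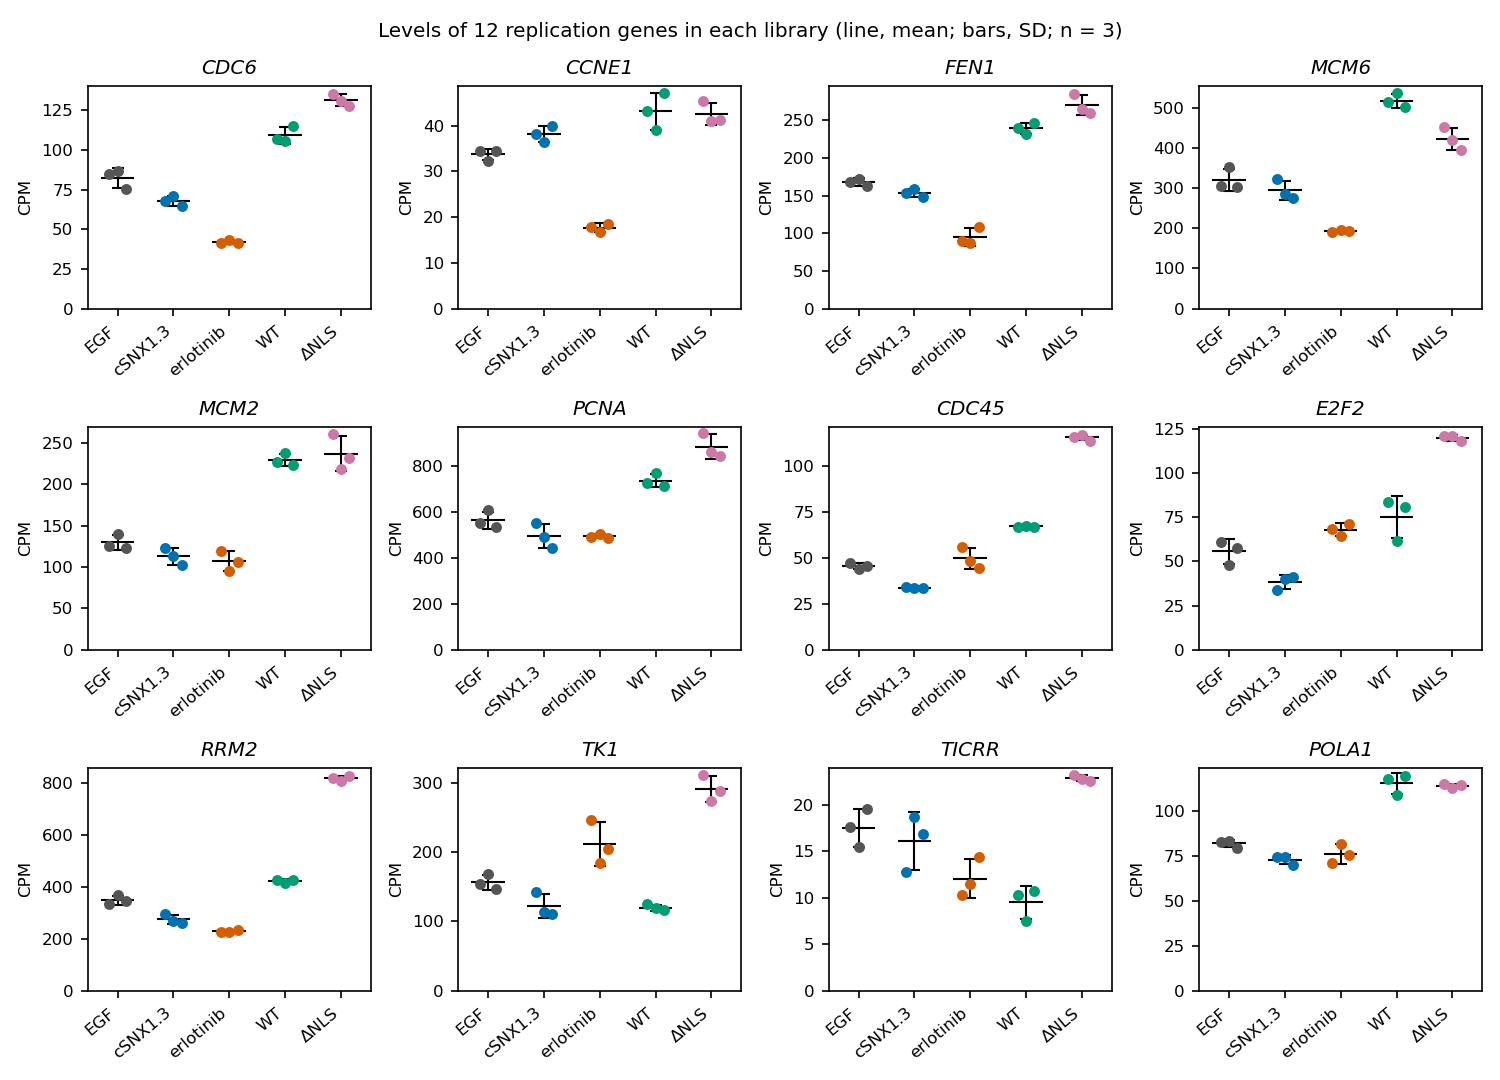
Levels of 12 of the 45 genes in each library, in CPM on one TMM scale (points, libraries; line and bars, mean and SD, n = 3). CDC6, CCNE1, FEN1 and MCM6 were lowest with erlotinib, CDC45 and E2F2 were lowest with cSNX1.3 and highest in ΔNLS, and TK1 and TICRR had their lowest means in WT.

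Erlotinib against EGF asks what kinase inhibition did to replication genes in EGF-treated cells. Of the 45 genes, 20 fell and 4 rose (edgeR's quasi-likelihood test, adjusted p under 0.05 over all 15738 genes tested), and 21 were not called. Over all genes, 21.2% fell and 22.8% rose. The median log2 fold change was -0.22 over the 45 genes and 0.01 over all genes. By role, 3 of 5 loading genes (with GMNN, an inhibitor of loading, counted among them), 4 of 6 MCM subunits and 4 of 8 genes of helicase activation and the fork fell. So did 1 of 5 clamp and clamp loader genes, 1 of 2 lagging strand genes, 2 of 4 genes of nucleotide supply and uracil repair, 2 of 2 chromatin assembly genes and 3 of 5 S-phase control genes. None of the 8 polymerase and primase genes was called.

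Among the loading factors, CDC6 fell most. It was at 84.8, 86.9 and 75.3 CPM with EGF and at 41.4, 43.2 and 41.4 CPM with erlotinib. The groups did not overlap, and the log2 fold change was -0.96 ± 0.09 (SE, n = 3 per group; edgeR adjusted p = 2.81e-07). ORC6, a subunit of the origin recognition complex, went from 27.5, 21.5 and 26.4 to 13.1, 15.6 and 16.6 CPM, again without overlap, with a log2 fold change of -0.73 ± 0.13 (adjusted p = 0.000342). GMNN, which inhibits CDT1, fell by 0.41 on the log2 scale (adjusted p = 0.00139). CDT1 itself rose by 0.32 ± 0.11 (adjusted p = 0.0228), but its groups overlapped, with 113 to 132 CPM under EGF and 128 to 165 CPM under erlotinib. ORC1 was at -0.16 ± 0.08 and was not called.

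All 6 MCM subunits of the helicase were below 0 and 4 of them were called. MCM6 was at 305, 352 and 303 CPM with EGF and at 192, 197 and 192 CPM with erlotinib, a log2 fold change of -0.71 ± 0.09 (adjusted p = 1.24e-05). The 3 erlotinib libraries lay close together and well below EGF. MCM3 fell by 0.47, MCM4 by 0.32 and MCM2 by 0.27 (adjusted p = 0.000498, 0.00497 and 0.0333), whereas MCM5 at -0.26 ± 0.11 and MCM7 at -0.24 ± 0.11 were not called and their groups overlapped. The MCM2 call was lost with an offset for GC content and length (-0.18) and without EGF replicate 1 or 2 or erlotinib replicate 2 or 3 (-0.30, -0.23, -0.20 and -0.27). MCM6 thus moved most among the subunits of this ring. Of the exon bases of MCM2, 23.6% are shared with a gene on the other strand, whose reads could not be told apart. Of the 45 genes, 17 share some exon bases with a gene on the other strand, and MCM2, GINS3, GINS4 and CCNE2 share at least 10% of them. On the same strand, POLA2 shares 16.8% and PRIM1 10.9% of exon bases with another gene.

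Of the 8 genes of helicase activation and the fork, 4 fell and 1 rose. MCM10, which helps to open the helicase, went from 21.4 to 27.5 CPM to 14.1 to 16.4 CPM (log2 fold change -0.65 ± 0.12, adjusted p = 0.000369). TICRR, which brings CDC45 to origins, fell by 0.54 (adjusted p = 0.0118), and the GINS subunits GINS1 and GINS2 fell by 0.38 and 0.35. CDC45, the partner of GINS, did not follow, at 44.1 to 47.2 CPM with EGF and 44.8 to 56.3 CPM with erlotinib (log2 fold change 0.14 ± 0.09, adjusted p = 0.248). TIMELESS, a fork protection factor, rose from 39.96 to 49.6 CPM to 58.0 to 66.5 CPM (0.43 ± 0.11, adjusted p = 0.0059).

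At the clamp, PCNA was at 551, 607 and 534 CPM with EGF and 492, 506 and 489 CPM with erlotinib. The groups did not overlap, but the difference of -0.18 ± 0.10 was not called (adjusted p = 0.153). RFC2 alone of the 4 clamp loader genes was called, at -0.22 ± 0.09 (adjusted p = 0.0437). POLA1, the catalytic subunit of polymerase alpha, was at 79.7 to 83.4 and 71.1 to 81.9 CPM, a difference of -0.10 ± 0.08 (adjusted p = 0.375). FEN1, which trims the flaps of Okazaki fragments, contrasted with these. It went from 169, 173 and 162 CPM to 89.1, 87.4 and 108 CPM (log2 fold change -0.81 ± 0.09, adjusted p = 4.37e-06), whereas LIG1, which seals the same fragments, was at -0.02 ± 0.10.

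The nucleotide genes split. RRM2, the S-phase subunit of ribonucleotide reductase, fell from 334, 368 and 345 to 224, 227 and 234 CPM (-0.60 ± 0.08, adjusted p = 3.38e-05), while the other subunit RRM1 was at 0.03 ± 0.09. TK1, the thymidine salvage kinase, rose from 154, 168 and 147 to 246, 185 and 204 CPM (0.45 ± 0.11, adjusted p = 0.00486). UNG, which removes uracil from DNA, fell by 0.41, and CHAF1A and CHAF1B, which place histones on new DNA, fell by 0.52 and 0.22 (adjusted p = 0.00157, 0.00266 and 0.0337).

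Cyclin E, which activates CDK2 at the start of S phase, fell in both forms. CCNE1 was at 34.3, 32.4 and 34.5 CPM with EGF and at 17.9, 16.7 and 18.6 CPM with erlotinib, a log2 fold change of -0.92 ± 0.09 (adjusted p = 1.3e-06). The erlotinib libraries lay at about the same level and far below EGF. CCNE2 fell by 0.47 (adjusted p = 0.00529), although 37.1% of its exon bases are shared with INTS8 on the other strand, whose reads could not be told apart. DTL fell by 0.60 (adjusted p = 8.74e-05). E2F1 was not called (-0.13 ± 0.09, adjusted p = 0.293), and E2F2 rose from 48.0 to 61.1 CPM to 64.5 to 71.5 CPM (0.30 ± 0.11, adjusted p = 0.0343).

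Of 43 other replication genes, 16 fell and 4 rose with erlotinib (median -0.14). CLSPN, a checkpoint adaptor at the fork, fell by 1.28 and UHRF1, a maintenance methylation factor, by 1.19 on the log2 scale, while ORC3 rose by 0.71. Of 15 G2/M genes tested, 2 rose and 1 fell (median 0.00), with TOP2A at 0.49, KIF11 at 0.26 and AURKA at -0.22. At an adjusted p under 0.01, 2 of the 45 genes rose, TK1 and TIMELESS; the same 2 were left without EGF replicate 3, erlotinib replicate 1 or erlotinib replicate 3, and without EGF replicate 1 CDT1 and without EGF replicate 2 E2F2 was not called.

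**Figure D2:**
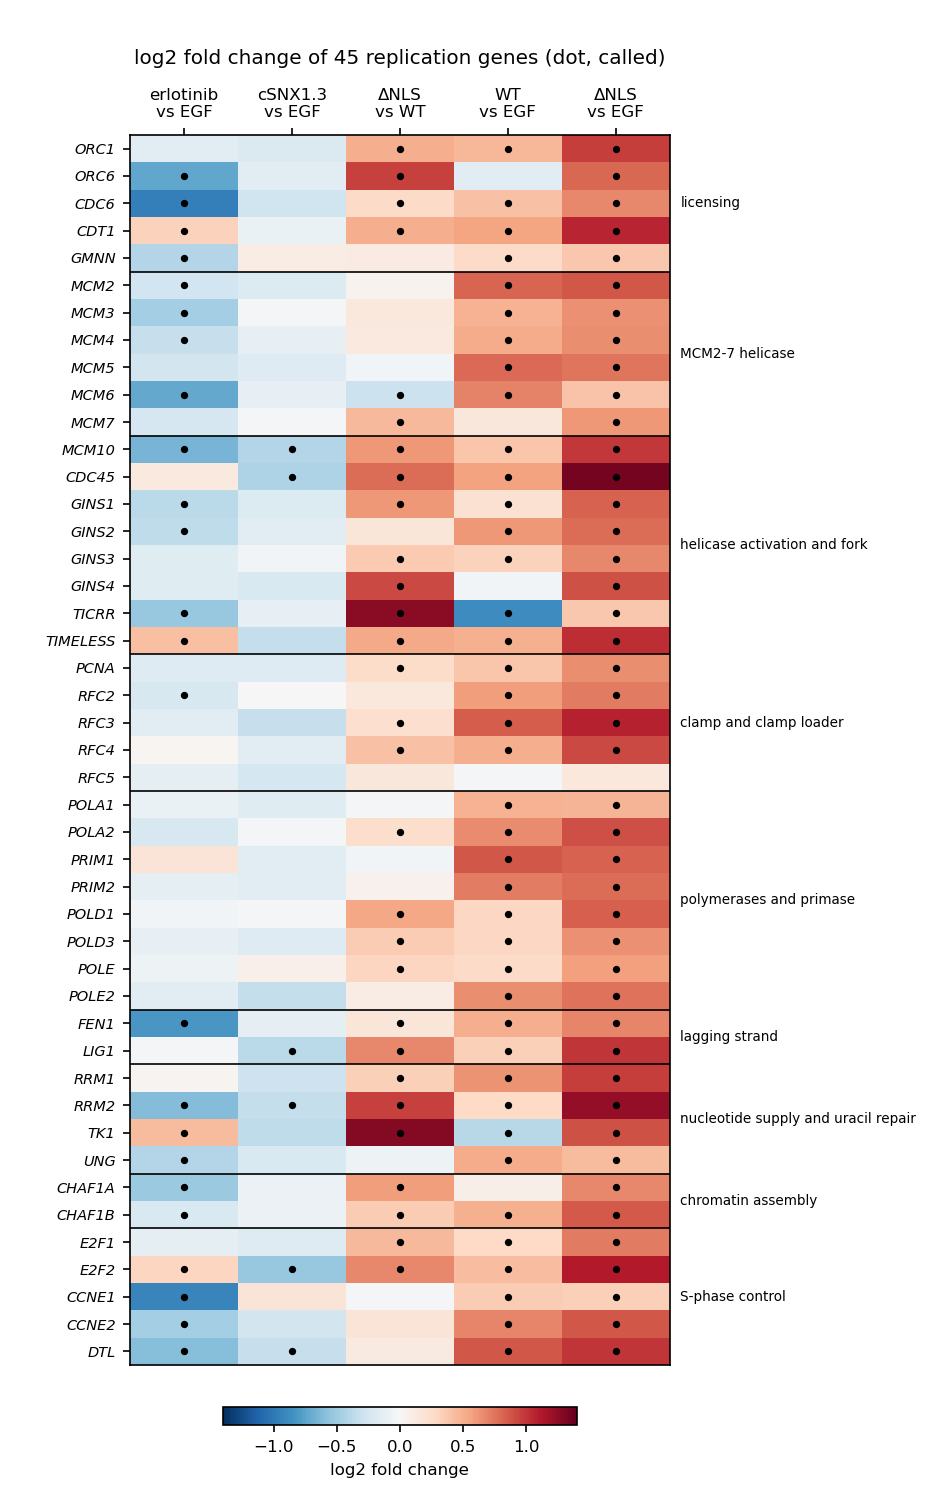
log2 fold changes of the 45 genes in 5 comparisons, ordered by role (red, higher in the group named first; blue, lower; dots, adjusted p under 0.05). Erlotinib lowered 20 genes, cSNX1.3 lowered 6, and 28, 38 and 44 genes were higher in ΔNLS against WT, WT against EGF and ΔNLS against EGF.

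cSNX1.3 against EGF asks the same of the peptide, with the same EGF libraries as control. The series holds no group with a control peptide, so the part of peptide exposure as such was not tested. Of the 45 genes, 6 fell and none rose, while over all genes 2.69% fell and 3.38% rose. No member was higher at an unadjusted p under 0.05 or by DESeq2 either (0 genes in each). At an unadjusted p under 0.05 in edgeR, 15 members were lower, where 1520 of all 15738 genes were lower and 1524 higher. The median log2 fold change was -0.18 over the 45 genes, of which 41 were below 0, and 0.00 over all genes. The 6 genes were E2F2, CDC45, MCM10, LIG1, RRM2 and DTL.

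E2F2 fell most, from 61.1, 48.0 and 57.8 CPM to 33.9, 40.2 and 41.4 CPM (log2 fold change -0.53 ± 0.11, n = 3 per group, edgeR adjusted p = 0.00754). CDC45 went from 47.2, 44.1 and 45.6 CPM to 34.3, 33.7 and 33.5 CPM (-0.43 ± 0.10, adjusted p = 0.0114). For both genes the groups stood apart, and the CDC45 libraries under cSNX1.3 were almost level. LIG1 went from 66.4 to 73.6 CPM to 50.3 to 57.8 CPM (-0.37 ± 0.10, adjusted p = 0.029), and RRM2 from 334 to 368 CPM to 262 to 295 CPM (-0.34 ± 0.08, adjusted p = 0.0232). DTL at -0.33 ± 0.09 and MCM10 at -0.41 ± 0.12 were close to the threshold (adjusted p = 0.0449 and 0.0499).

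Of the 8 largest falls with erlotinib, MCM10, RRM2 and DTL were called lower here too, and CDC6, CCNE1, FEN1, ORC6 and MCM6 were not called. CDC6 was at 67.5, 71.1 and 64.8 CPM against 75.3 to 86.9 CPM with EGF, without overlap (-0.28 ± 0.08, adjusted p = 0.0651). CCNE1 was at 38.2, 36.3 and 39.9 CPM, above all 3 EGF libraries (0.18 ± 0.09, adjusted p = 0.306). MCM2 at -0.20 ± 0.10, PCNA at -0.18 ± 0.10, POLA1 at -0.17 ± 0.08, E2F1 at -0.18 ± 0.09 and CCNE2 at -0.26 ± 0.12 were not called either.

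Of the 43 other replication genes, 3 fell and 1 rose (median -0.10), with ORC3 at -0.42 and POLD4, a small subunit of polymerase delta, at 0.64. Of the 15 G2/M genes 1 fell, CCNB2 at -0.35 (median -0.19). The 6 calls were not stable to the libraries used. No member was called without EGF replicate 1, 1 without cSNX1.3 replicate 2 and 2 without EGF replicate 3 or without cSNX1.3 replicate 3, whereas a fit of all 15 libraries called 11. Calls over all genes, in both directions, moved too, from 956 to 531, 526, 592 and 668 in these fits and to 1444 with all 15 libraries. The median of the 45 genes stayed between -0.20 and -0.14 in the alternatives.

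cSNX1.3 against erlotinib compares the drugs directly, at doses that differ (10 and 15 µM). Of the 45 genes, 13 were higher and 8 lower with cSNX1.3, where 27.6% and 28.5% of all genes were, and the median was 0.13. CCNE1 differed most, at 36.3 to 39.9 CPM with cSNX1.3 and 16.7 to 18.6 CPM with erlotinib (log2 fold change 1.10 ± 0.09, n = 3 per group, edgeR adjusted p = 8.57e-08). CDC6 (0.68 ± 0.09), FEN1 (0.68 ± 0.09), MCM6 (0.60 ± 0.09), ORC6 (0.58 ± 0.13), GMNN (0.51 ± 0.09), MCM3 (0.45 ± 0.09) and CHAF1A (0.43 ± 0.12) followed, with adjusted p between 5.55e-06 and 0.00636. In the other direction stood E2F2 at 33.9 to 41.4 against 64.5 to 71.5 CPM (-0.83 ± 0.11, adjusted p = 1.07e-05), TK1 at 110 to 142 against 185 to 246 CPM (-0.81 ± 0.11, adjusted p = 2.16e-05), and TIMELESS at 31.2 to 39.1 against 58.0 to 66.5 CPM (-0.76 ± 0.11, adjusted p = 3.39e-05).

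The 5 other genes lower with cSNX1.3 were CDC45 (-0.57 ± 0.10), CDT1 (-0.41 ± 0.11), LIG1 (-0.35 ± 0.10), PRIM1, which synthesises RNA primers (-0.33 ± 0.13), and RRM1 (-0.32 ± 0.09), with adjusted p between 0.000103 and 0.0485. PRIM1 was not called with DESeq2 (adjusted p = 0.0611) or by edgeR with DESeq2 size factors (adjusted p = 0.0597). Its call was also lost with the GC and length offset (-0.16), and without erlotinib replicate 1 or 2 or cSNX1.3 replicate 2 or 3 (-0.34, -0.17, -0.27 and -0.30). Among the landmarks, RRM2 (0.26 ± 0.08, adjusted p = 0.0146) was called besides CCNE1, CDC6 and CDC45. MCM2, PCNA, POLA1, E2F1 and CCNE2 were at 0.08 ± 0.10, -0.01 ± 0.10, -0.07 ± 0.08, -0.05 ± 0.09 and 0.22 ± 0.12, with adjusted p of 0.528, 0.953, 0.488, 0.654 and 0.144, and the signs of MCM2, PCNA and POLA1 turned with an offset for GC content and length (-0.031, 0.195 and 0.064). The other replication genes split likewise (15 higher and 9 lower of 43, with UHRF1 at 1.29, CLSPN at 1.22 and ORC3 at -1.13), and 6 of 15 G2/M genes were lower, with TOP2A at -0.72 and CCNB2 at -0.56.

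ΔNLS against WT compares the lines that differ in the nuclear localization signal of the EGFR put back. No further line of either form is in the series, so the mutation cannot be told apart from other differences between these lines. EGFR itself was at 1147 to 1450 CPM in WT and 1688 to 1746 CPM in ΔNLS, and its part was not tested. Of the 45 genes, 28 were higher in ΔNLS and 1 was lower, against 20.4% and 21.0% of the 15805 genes tested. The median log2 fold change was 0.31 over the 45 genes and 0.01 over all genes. By role, 7 of 8 genes of helicase activation and the fork, 4 of 5 loading genes (GMNN, the inhibitor, counted among the 5) and 3 of 4 genes of nucleotide supply and uracil repair were higher. So were both lagging strand genes and both chromatin assembly genes, but only 1 of 6 MCM subunits.

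TK1 rose most. It was at 124, 119 and 116 CPM in WT and at 311, 274 and 288 CPM in ΔNLS, a log2 fold change of 1.28 ± 0.07 (n = 3 per group, edgeR adjusted p = 8.14e-10). TICRR went from 10.3, 7.50 and 10.7 to 23.2, 22.8 and 22.6 CPM (1.26 ± 0.11, adjusted p = 2.55e-07). For both genes the lowest ΔNLS library lay far above the highest WT library.

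RRM2 was at 428, 415 and 426 CPM in WT and at 820, 808 and 827 CPM in ΔNLS (0.95 ± 0.07, adjusted p = 1.64e-08), the largest difference in CPM among the 45 genes. ORC6 went from 20.9 to 24.4 to 42.6 to 45.4 CPM (0.96 ± 0.08, adjusted p = 1.05e-07), and CDC45 from 67.2, 67.7 and 67.2 to 116, 117 and 114 CPM (0.78 ± 0.06, adjusted p = 8.38e-08). GINS4, the GINS subunit with 21.0% of its exon bases shared with a gene on the other strand, went from 18.5 to 24.6 to 39.0 to 42.3 CPM (0.93 ± 0.10, adjusted p = 1.04e-06). These genes serve different steps, from the origin to the nucleotide supply. E2F2 (0.68 ± 0.09, adjusted p = 2.33e-05) and LIG1 (0.67 ± 0.07, adjusted p = 1.6e-06) completed the 8 largest rises.

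Smaller rises were called for CDC6 (0.26 ± 0.07, adjusted p = 0.00458), PCNA (0.26 ± 0.08, adjusted p = 0.0105) and E2F1 (0.45 ± 0.07, adjusted p = 0.000107). The helicase ring itself was uneven. MCM7 was at 365 to 410 CPM in WT and 498 to 550 CPM in ΔNLS (0.45 ± 0.07, adjusted p = 0.000136), whereas MCM6 was at 515, 537 and 503 in WT and 452, 420 and 396 CPM in ΔNLS, the only gene that fell (-0.30 ± 0.07, adjusted p = 0.00408). MCM2 was at 223 to 238 and 219 to 261 CPM (0.05 ± 0.07, adjusted p = 0.628), MCM3 at 0.15, MCM4 at 0.14 and MCM5 at -0.04, none of them called. With an offset for GC content and length, MCM2 was at -0.068 and POLA1 at 0.071. Without it POLA1 (-0.02 ± 0.07, adjusted p = 0.854), CCNE1 (-0.02 ± 0.08, adjusted p = 0.87) and CCNE2 (0.18 ± 0.08, adjusted p = 0.0717) were not called.

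Of the 8 polymerase and primase genes, 4 were higher in ΔNLS and 4 were not called. The higher ones were POLD1, the catalytic subunit of polymerase delta, at 123 to 131 CPM in WT and 177 to 190 CPM in ΔNLS (0.54 ± 0.07, adjusted p = 5.78e-06), its accessory subunit POLD3 at 81.5 to 88.8 and 107 to 116 CPM (0.35 ± 0.07), POLE, the catalytic subunit of polymerase epsilon, at 76.6 to 87.6 and 99.2 to 107 CPM (0.31 ± 0.07), and POLA2, the second subunit of polymerase alpha (0.25 ± 0.09, adjusted p = 0.0407). POLE2, a further subunit of polymerase epsilon, was at 11.7 to 14.2 and 12.9 to 15.2 CPM and was not called (0.11 ± 0.10, adjusted p = 0.441). The primase genes PRIM1 (-0.04 ± 0.08) and PRIM2 (0.06 ± 0.07), which make the RNA primer, were not called and their groups overlapped. Among the clamp loader genes RFC4 rose from 51.7 to 53.9 CPM to 69.9 to 70.3 CPM (0.41 ± 0.07, adjusted p = 0.00012) and RFC3 by 0.23 ± 0.07, while RFC2 at 0.14 ± 0.07 and RFC5 at 0.16 ± 0.07 were not called.

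Most of the remaining loading, fork and histone genes rose as well. ORC1, the ATPase of the origin recognition complex, went from 58.5 to 61.1 CPM to 82.5 to 89.0 CPM (0.51 ± 0.07, adjusted p = 1.69e-05), and CDT1 from 175 to 179 CPM to 234 to 277 CPM (0.51 ± 0.07, adjusted p = 3.77e-05). GMNN, the inhibitor of CDT1, did not follow, at 199 to 207 and 215 to 226 CPM (0.11 ± 0.06, adjusted p = 0.176), although its groups did not overlap. TIMELESS (0.54 ± 0.07), MCM10 (0.61 ± 0.09), GINS1 (0.61 ± 0.08), GINS3 (0.36 ± 0.09), CHAF1A (0.59 ± 0.09), CHAF1B (0.36 ± 0.06) and RRM1 (0.33 ± 0.07) were called higher, and GINS2 (0.17 ± 0.07) was not.

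Genes of the next cell cycle stage moved further. All 15 G2/M genes tested were higher in ΔNLS, with a median of 1.31 and the largest rises in KIF20A (1.61) and CENPF (1.54), and their summed level was 1037 to 1139 CPM in WT and 2510 to 2875 CPM in ΔNLS. Of the 43 other replication genes, 25 were higher and 2 lower (median 0.26), with the helicase RECQL4 at 1.20, the clamp loader subunit CHTF18 at 1.19, POLD4 at -0.65 and ORC4 at -0.33. The part of the G2/M difference in the replication genes was not tested.

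**Figure D3:**
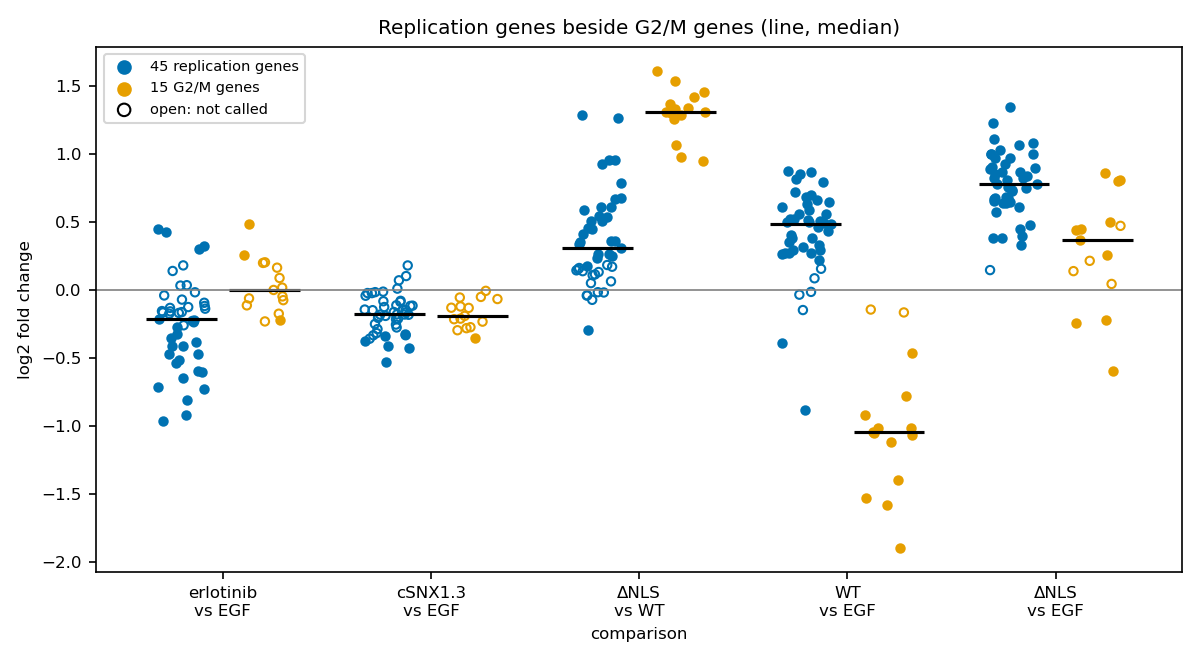
log2 fold changes of the 45 replication genes (blue) and 15 G2/M genes (orange) in 5 comparisons (filled, adjusted p under 0.05; open, not called; line, median). In WT against EGF the replication genes had a median of 0.48 and the G2/M genes one of -1.05, and in ΔNLS against WT the medians were 0.31 and 1.31.

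The lines were also set against the EGF libraries of the drug experiment. Here the line, the knockdown, the EGFR put back, the experiment and any difference in serum starvation cannot be told apart. Both comparisons use the same EGF libraries. In WT, 38 of the 45 genes were higher than in EGF cells and 2 lower, against 25.2% and 25.5% of 16082 genes, with a median of 0.48. In ΔNLS, 44 were higher and none lower, against 20.5% and 20.7% of genes, with a median of 0.78. No member was lower in ΔNLS at an unadjusted p under 0.05 or by DESeq2 (0 genes in each), and RFC5, a clamp loader subunit, was the gene not called (0.14 ± 0.07, adjusted p = 0.121).

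In WT the largest rises were in DTL, from 59.8 to 66.1 CPM in EGF cells to 113 to 116 CPM (log2 fold change 0.87 ± 0.07, n = 3 per group, edgeR adjusted p = 3.72e-08), PRIM1 (0.87 ± 0.08), RFC3 (0.85 ± 0.07), MCM2 (0.82 ± 0.08), MCM5 (0.79 ± 0.09), PRIM2 (0.72 ± 0.09), MCM6 (0.69 ± 0.08) and CCNE2 (0.69 ± 0.08), with adjusted p between 3.72e-08 and 6.29e-06. MCM2 was at 126, 140 and 123 CPM in EGF cells and 226, 238 and 223 CPM in WT, with no overlap. So all 8 polymerase and primase genes and 5 of 6 MCM subunits were higher in WT. Of these 8 largest rises, RFC3 (0.23, higher) and MCM6 (-0.30, lower) were also called in ΔNLS against WT, and the other 6 were not. The same WT libraries stand in WT against EGF and in ΔNLS against WT, with opposite sign, so these results are not independent.

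The 2 genes lower in WT than in EGF cells were TICRR, at 15.5 to 19.6 CPM in EGF cells and 7.50 to 10.7 CPM in WT (-0.89 ± 0.12, adjusted p = 2.55e-05), and TK1, at 147 to 168 and 116 to 124 CPM (-0.39 ± 0.07, adjusted p = 0.000419). TK1 and TICRR were also the 2 largest rises in ΔNLS against WT, where a low level in the same WT libraries enters too. In WT, 13 of the 15 G2/M genes were lower (median -1.05), with CCNB1 at -1.90 and CDC20 at -1.58, and their summed level was 1037 to 1139 CPM against 2060 to 2234 CPM in EGF cells. The other landmarks CDC6 (0.41), CDC45 (0.56), PCNA (0.38), POLA1 (0.49), RRM2 (0.27), E2F1 (0.27) and CCNE1 (0.35) were called higher.

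In ΔNLS against EGF, CDC45 rose most, from 44.1 to 47.2 CPM to 114 to 117 CPM (1.34 ± 0.06, adjusted p = 1.04e-09), followed by RRM2 at 1.23 ± 0.07, E2F2 at 1.11 ± 0.11, RFC3 at 1.08 ± 0.07, CDT1 at 1.06 ± 0.08, TIMELESS at 1.03 ± 0.09, DTL at 1.001 ± 0.07 and LIG1 at 1.0002 ± 0.08. TK1 and TICRR, which were lower in WT, were higher here at 0.89 ± 0.07 and 0.38 ± 0.12. The other landmarks were MCM2 at 0.87, CDC6 at 0.67, PCNA at 0.65, POLA1 at 0.47, E2F1 at 0.72, CCNE1 at 0.33 and CCNE2 at 0.87, all called. Of the 43 other replication genes, 23 were higher and 9 lower in WT (DSCC1 at 1.05, HELLS at 1.03, CHTF18 at -1.18 and RECQL4 at -0.53) and 33 higher and 2 lower in ΔNLS (DSCC1 at 1.75, ATAD2 at 1.41, ORC4 at -0.27 and MCMBP at -0.24). In ΔNLS 8 of 15 G2/M genes were higher and 3 lower than in EGF cells, TOP2A at 0.86 and KIF11 at 0.81 above and CCNB1 at -0.60 and CDC20 at -0.24 below.

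Both cSNX1.3 and the NLS mutation bear on nuclear EGFR, so their effects were compared in one fit of all 15 libraries, as the ΔNLS effect (against WT) minus the cSNX1.3 effect (against EGF). The difference is signed, so a higher effect here is a more positive one and not always a stronger one. Of the 45 genes, 29 had a higher log2 effect in ΔNLS and none a lower one, against 11.3% and 11.8% of 16524 genes, with a median difference of 0.46. No member had a lower effect in ΔNLS at an unadjusted p under 0.05 or by DESeq2 (0 genes in each). TK1 differed most, by 1.65 ± 0.15 (adjusted p = 3.72e-08), at -0.36 with cSNX1.3 and 1.28 in ΔNLS against WT. TICRR (1.38 ± 0.21), RRM2 (1.29 ± 0.11), CDC45 (1.21 ± 0.11), E2F2 (1.20 ± 0.15), GINS4 (1.14 ± 0.17), ORC6 (1.10 ± 0.15) and LIG1 (1.05 ± 0.12) followed (edgeR adjusted p between 1.04e-08 and 3.99e-05).

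The 6 genes lowered by cSNX1.3 split in ΔNLS. E2F2, CDC45, LIG1, RRM2 and MCM10 were called higher there, and DTL was at 0.13 ± 0.07 and was not called. Of the landmarks, CDC6 (0.54 ± 0.11), PCNA (0.45 ± 0.13), E2F1 (0.63 ± 0.12) and CCNE2 (0.44 ± 0.15) differed between the effects, although CCNE2 was not called without EGF replicate 1, cSNX1.3 replicate 2, ΔNLS replicate 2 or 3 or WT replicate 1 or 2 (0.37 to 0.47, adjusted p between 0.0504 and 0.102), and MCM2 (0.25 ± 0.13, adjusted p = 0.193), POLA1 (0.15 ± 0.10, adjusted p = 0.323) and CCNE1 (-0.20 ± 0.12, adjusted p = 0.261) were not called. Of the other replication genes 15 differed upwards and 1 downwards (RECQL4 at 1.35, CCNA2 at 1.21 and POLD4 at -1.29), and all 15 G2/M genes differed upwards (median 1.496, KIF20A at 1.90 and BIRC5 at 1.65). The EGFR level and the experiment also differ between the drug and line groups, and their part in the difference was not tested.

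**Figure D4:**
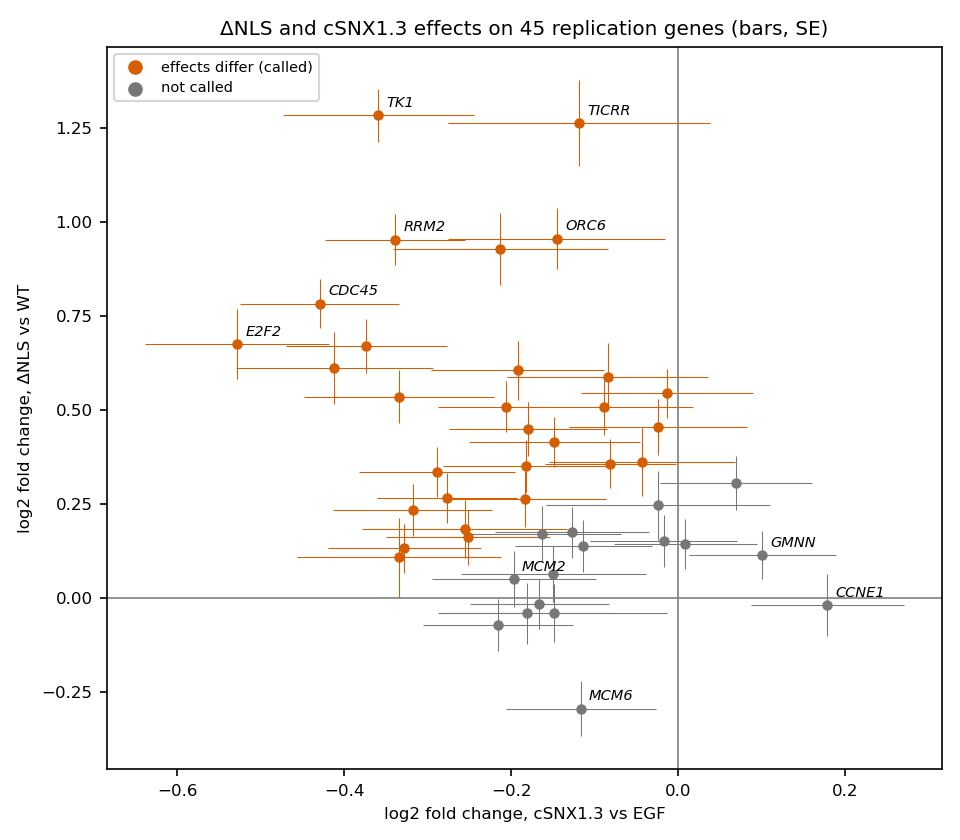
log2 fold change of ΔNLS against WT (vertical) and of cSNX1.3 against EGF (horizontal) for the 45 genes, with SE bars; orange genes have effects that differ at an adjusted p under 0.05. TK1 at -0.36 and 1.28 and TICRR at -0.12 and 1.26 lie highest, and MCM6 at -0.12 and -0.30 is lowest.

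Genes with and without E2F letters did not separate the same way in each comparison. With erlotinib, 9 of 21 genes with the letters and 9 of 19 without fell (medians -0.23 and -0.16). In WT against EGF, 20 of 21 and 14 of 19 were higher (0.48 and 0.46). In ΔNLS against WT, 12 of 21 and 14 of 19 were higher (0.25 and 0.51). Among the largest rises there, TK1, TICRR, ORC6, RRM2 and CDC45 were without the letters, and E2F2 and LIG1 carried them. PCNA, with a smaller rise, and MCM6, which fell, also carried the letters. PRIM1, PRIM2 and CCNE1, which were not called, were without them. These counts were not tested.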

How the data were processed

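The series holds 15 RNA-seq libraries of MDA-MB-468 cells, 3 in each of 5 groups, which were taken from the sample labels. The deposited values are counts of read pairs per gene, which the authors made by trimming reads with TrimGalore, aligning them to GRCh38 with STAR and counting them with featureCounts without regard to strand. The annotation release is not given in the sources used here. Of 61552 IDs, 61399 matched GENCODE 44.

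Tests used edgeR 4.0.16 (R 4.3.3; TMM, filterByExpr, robust quasi-likelihood test, Benjamini-Hochberg adjustment over all genes, threshold 0.05). One fit held the 9 drug libraries, one the 6 line libraries, one EGF with both lines and one all 15 libraries. The test was run on simulated data with known changes. DESeq2 1.42.0, other filters and fits, an offset for GC content and length, the replicate number as a block and leaving out each replicate were alternatives. Replicate pairs differed beyond sampling noise (chi-square per degree of freedom 2.60 to 22.3), so none was a copy. RPKM used the union of exons.

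The members and gene lists were chosen with earlier results of these data known. Named genes were up to 8 called members with the largest change in each direction and the landmarks MCM2, CDC6, CDC45, PCNA, POLA1, RRM2, E2F1, CCNE1 and CCNE2. Other members are given as examples of their role, chosen after their values were seen. The 2 largest called changes in each direction of the other gene lists are also named, except where a gene is not reported here.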

Additional observations from a re-analysis of the deposited data

Results flagged for a closer look

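The ΔNLS effect (against WT) and the cSNX1.3 effect (against EGF) differed, by the interaction test in edgeR, for 29 of the 45 genes. The ΔNLS effect was the higher one for all of these. Over all genes, 11.3% had a higher and 11.8% a lower effect in ΔNLS. The differences, on the log2 scale, were 1.65 for TK1, 1.38 for TICRR, 1.29 for RRM2, 1.21 for CDC45, 1.20 for E2F2, 1.14 for GINS4, 1.10 for ORC6, 1.05 for LIG1, 0.63 for E2F1, 0.54 for CDC6, 0.45 for PCNA and 0.44 for CCNE2, which was not called in 6 of 18 alternatives. The EGFR level, line, knockdown and experiment differ with these groups, and their part was not tested. Groups of 3 are too small for the test of single outlying libraries.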

How the results depend on the processing

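Counts of members kept within 1.5 times the main count in most alternatives. The exceptions were, with erlotinib, 2 rises instead of 4 at an adjusted p under 0.01 (leaving out a replicate gave 2 to 4); with cSNX1.3, 11 falls instead of 6 in the fit of all 15 libraries and 1 at an adjusted p under 0.01 (0 to 6 leaving out a replicate); for cSNX1.3 against erlotinib, 8 instead of 13 genes higher at an adjusted p under 0.01; and for WT against EGF, 4 instead of 2 genes lower with the GC content and length offset. The cause was not tested beyond the stricter threshold. Signs and single calls were followed for the named genes only, so changes of other members are not listed. Of the named genes, only genes near 0 changed sign, none of them called. For cSNX1.3 against erlotinib these were PCNA at 0.0069 with DESeq2 size factors, 0.0068 with DESeq2, 0.0002 with all 15 libraries and 0.19 with the GC and length offset, where MCM2 was at -0.031 and POLA1 at 0.064, and, leaving out a replicate, PCNA (-0.0821 to 0.0706), E2F1 (-0.1207 to 0.0235) and MCM2 (0.00 to 0.1586). For ΔNLS against WT, MCM2 was at -0.068 and POLA1 at 0.071 with that offset, and leaving out a replicate gave MCM2 -0.0207 to 0.1052, CCNE1 -0.0828 to 0.0435 and POLA1 -0.0565 to 0.0042. The named genes also lost single calls beside those given in the report and those of cSNX1.3 against EGF. With the GC and length offset these were RRM1 (-0.17, cSNX1.3 against erlotinib), PCNA (0.19) and RRM2 (0.20, both WT against EGF). CHAF1A (0.32, cSNX1.3 against erlotinib) was lost without cSNX1.3 replicate 2, and PCNA (0.25, ΔNLS against WT) without WT replicate 1. The lowest and highest number of members called by an alternative was 16 to 27 falls with erlotinib, 24 to 32 rises for ΔNLS against WT, 32 to 38 for WT against EGF, 43 to 44 for ΔNLS against EGF and 23 to 31 for the difference of effects. Over all genes and in both directions, the alternatives called 4789 to 7718, 4513 to 6820, 6045 to 8480, 4561 to 7437 and 2359 to 4444 genes, in the same order.

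Same-numbered replicates mostly did not deviate together. Correlations were over 0.1 in 2 of 9 drug pairs, 0 of 3 line pairs and 2 of 9 pairs among EGF and the lines (highest 0.33). The main fits therefore used no pairing, although such correlations in groups of 3 cannot show that the libraries were unpaired. With the replicate block, 4 members rose and 19 fell with erlotinib, 5 fell with cSNX1.3 and 26 rose in ΔNLS against WT, and no count moved by over 1.5 times. Over all genes and in both directions, the block called 6707, 841 and 5766 genes in these comparisons.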
